A study of Homo sapiens with 4 samples.

Results

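Chromatin loops at the 8 genes that encode the subunits of the human condensin complexes were examined in MDA-MB-231 cells: SMC2, SMC4, NCAPD2, NCAPG, NCAPH, NCAPD3, NCAPG2 and NCAPH2. A loop was assigned to a gene when at least 1 of its anchors overlapped the gene body or the 20 kb on either side of it. By this rule 61 of 77275 loop calls in 4 libraries lay at a condensin gene, and no loop was assigned to more than 1 of the 8 genes. Calls whose anchor midpoints lay within 20 kb of each other were joined, which gave 27 distinct loops at these genes out of 33552 in all.

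MDA-MB-231 is an established human triple-negative breast cancer line, labelled wild type. The cells were exposed for 48 h to DMSO (vehicle) or to 75 nM THZ1, a covalent inhibitor of the cyclin-dependent kinase CDK7, and chromatin contacts were mapped by Hi-C, in which DNA ends that lie close together in the nucleus are joined and sequenced as pairs. Each condition had 2 libraries, numbered 1 and 2. The study's methods state that the cells were treated in duplicate. Neither the labels nor those methods say whether the duplicates were separate cultures. The p-values therefore measure only the spread between these libraries, which may be technical. The files hold loops and domains, not RNA, so neither the cell type nor the transcription of these genes could be checked from them. The comparison addressed here is whether loops at the condensin genes themselves differed between vehicle and THZ1.

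Condensin is a ring-shaped ATPase that extrudes and compacts DNA loops to form mitotic chromosomes. SMC2 and SMC4 form the ATPase core of both vertebrate complexes. NCAPH, NCAPD2 and NCAPG complete condensin I, which reaches chromosomes after the nuclear envelope breaks down, while NCAPH2, NCAPD3 and NCAPG2 complete condensin II, which is nuclear throughout the cell cycle. NCAPH and NCAPH2 are the kleisins that close the ring, and the D and G subunits are HEAT-repeat proteins that bind to them.

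The whole lists held 20768 and 24219 loops in vehicle libraries 1 and 2, and 17222 and 15066 in THZ1 libraries 1 and 2. Condensin genes accounted for 15 and 18 calls in the vehicle libraries, against 17 and 11 after THZ1. The conditions overlapped, with means of 16.5 ± 2.12 and 14 ± 4.24 (SD, n = 2 libraries each), and the exact two-sided permutation test gave p = 0.667, where 0.333 is the smallest p that 2 against 2 libraries allow. Counted per 1000 loops of the same library, the direction turned, from 0.733 ± 0.0148 with vehicle to 0.859 ± 0.182 with THZ1 (exact permutation p = 0.667). The lists do not hold the depth of each library, on which a call depends. The contacts observed at the peak pixel of a condensin gene loop ranged from 13 to 78, and a count of 13 has a 95% exact Poisson interval of 6.92 to 22.2, which covers counting error only.

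Loops were unevenly spread over the 8 genes. NCAPG had 17 calls, NCAPG2 16 and NCAPD2 14, so 3 genes held most of them, whereas SMC4 had 5, NCAPH 4, SMC2 and NCAPH2 2 each and NCAPD3 1. The order did not follow gene length: NCAPD3, the longest at 75.4 kb, had 1 call, and NCAPG had 17 over 33.9 kb. Of 20098 protein-coding genes, 83.2% had fewer calls than NCAPG and 15.3% had fewer than NCAPD3.

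**Figure D1:**
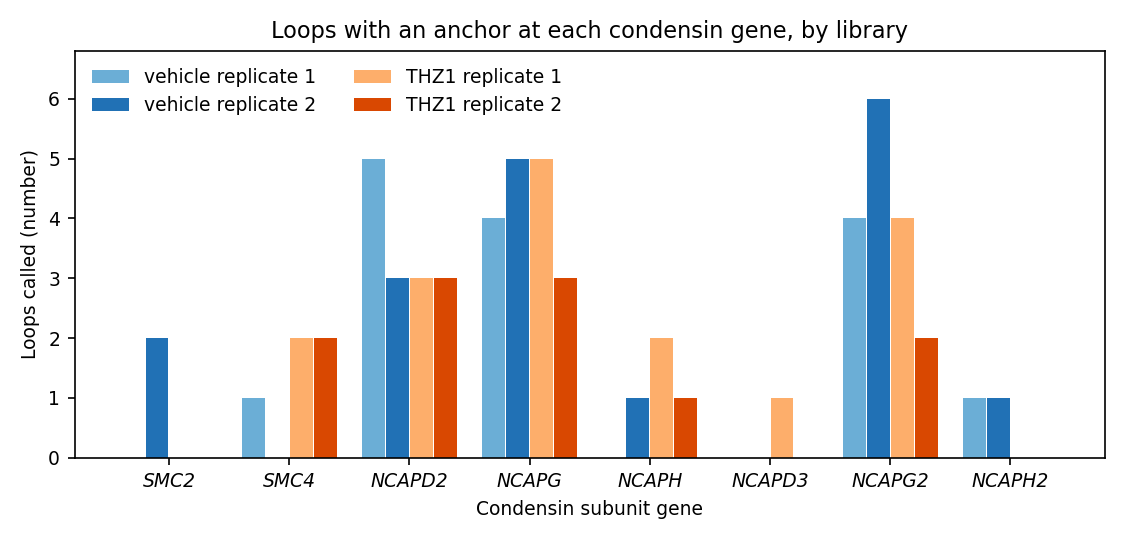
Number of loops called at each condensin gene (vertical axis) in each of the 4 libraries (bars). Counts of vehicle and THZ1 libraries overlap at 6 genes, are higher in both THZ1 libraries at SMC4 and lower in both at NCAPH2.

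By condition, SMC4 was the 1 gene with more loops in both THZ1 libraries than in both vehicle libraries, and NCAPH2 the 1 gene with fewer. Among the 17028 protein-coding genes with a loop in any library, 3.01% had more loops and 28.9% had fewer by the same rule. Thus 1 of 8 condensin genes was lower where 28.9% of genes were, and 1 of 8 was higher where 3.01% were. Each of these counts rests on 1 gene with 5 or fewer calls.

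SMC2, which lies at chr9:106856541-106903700 (GRCh37, plus strand), had loops in vehicle library 2 alone. Its start site lay in a 25 kb anchor, chr9:106850001-106875000, of a 300 kb loop to an upstream anchor without a protein-coding gene (44 contacts, 2.52 times the donut expectation) and of a 650 kb loop to the start of NIPSNAP3A (37 contacts, 3.53 times). The donut expectation is the number of contacts that the loop caller expects at the peak pixel from a ring of pixels around it. The other 3 libraries had no call at SMC2, so nothing at this gene was repeated between libraries.

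SMC4 (chr3:160117062-160152742, plus strand) had 1, 0, 2 and 2 calls in vehicle 1, vehicle 2, THZ1 1 and THZ1 2. The loops in the THZ1 libraries ended at the same place in the SMC4 gene body and reached the same pair of upstream anchors in each library. The shorter spanned 250 kb, from chr3:159880001-159885000 to chr3:160130001-160135000, with 17 contacts in THZ1 library 1 (8.80 times the donut expectation) and 23 in THZ1 library 2 (15.2 times). Averaged over the libraries that called each loop, no other distinct loop at a condensin gene had a ratio this high. For this loop those were the THZ1 libraries alone, since the vehicle lists hold no value for it. Its donut expectation was low, at 1.93 and 1.52 contacts in THZ1 libraries 1 and 2. In a single library, the NCAPG loop of 210 kb reached 13.1 times, in vehicle library 2. The longer SMC4 loop spanned 380 kb from chr3:159750001-159760000 and had 19 contacts in each THZ1 library, 4.79 and 4.27 times the expectation. Neither distant anchor holds a protein-coding gene.

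The 1 vehicle call at SMC4 was of another kind, a 50 kb loop from the 3′ end of the gene to the start of TRIM59, with 26 contacts in vehicle library 1 (3.78 times). Its anchor at the 3′ end of SMC4 also overlaps TRIM59, so both anchors of this loop lie at TRIM59. SMC4 also lay inside larger loops with no anchor within 20 kb of it. The smallest of these in vehicle library 1 spanned 300 kb, from chr3:159875001-159900000 to chr3:160175001-160200000 (36 contacts, 3.01 times), and in THZ1 library 1 320 kb, from chr3:159880001-159890000 to chr3:160200001-160210000 (17 contacts, 4.91 times). Both began at the upstream anchor of the 250 kb loop, so a loop from that anchor was also called with vehicle, ending past SMC4 and not inside it. In all 4 libraries SMC4 was enclosed by contacts about 53.85 Mb apart, between chr3:108350001-108360000 and chr3:162200001-162210000, at 17, 25 and 18 contacts in vehicle 1, vehicle 2 and THZ1 2, with a call of 53.845 Mb and 14 contacts in THZ1 1. These were 70.8, 78.7, 37.6 and 63.7 times the donut expectation, which was below 1 contact in each. Loops over 10 Mb were rare, at 32 and 36 in vehicle and 38 and 33 in THZ1 libraries in the whole lists.

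NCAPD2 (chr12:6602522-6641121, plus strand) sits between MRPL51, whose start shares an anchor with its own, and GAPDH, whose start lies just past its 3′ end. Its loops numbered 5, 3, 3 and 3, and the shortest linked the 2 ends of the gene. This 40 kb loop ran from chr12:6600001-6605000, which holds the start sites of NCAPD2 and MRPL51, to chr12:6640001-6645000, which holds the last part of NCAPD2 and the start of GAPDH. It was called in all 4 libraries with 34, 36, 31 and 27 contacts in the same order. Relative to the donut expectation these were 4.48 and 4.05 times with vehicle and 2.48 and 2.44 times with THZ1. Both THZ1 values were below both vehicle values, and in edgeR's quasi-likelihood test the ratio fell by 0.78 on the log2 scale (SE 0.22, Benjamini-Hochberg adjusted p = 0.0160 over 2622 loops). Its observed contacts changed by -0.27 and its donut expectation by 0.52 on the log2 scale. The call was lost on observed contacts alone with TMM (-0.25, edgeR, adjusted p = 0.624), with the horizontal and vertical expectations (-0.55 and -0.34, adjusted p = 0.268 and 0.514), and with any 1 library left out, where the change stayed between -0.86 and -0.72.

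A 110 kb loop joined chr12:6530001-6540000, where no protein-coding gene lies, to chr12:6640001-6650000 at GAPDH. Its ratios were 2.94 and 3.22 with vehicle and 3.27 and 2.70 with THZ1, so the conditions overlapped, and the change was -0.05 on the log2 scale (SE 0.23, edgeR, Benjamini-Hochberg adjusted p = 0.889). The direction turned in 4 of 11 alternatives and stayed the same in 7. It was 0.33 on observed contacts alone with TMM and 0.034 with the horizontal expectation. This loop and the 40 kb loop end at the same place, 3′ of NCAPD2, and both were measured in the same libraries. The difference between their changes was not tested.

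The anchors of the 110 kb loop carry letters of the binding motif of CTCF, the zinc-finger protein at which loops held by cohesin often end. The motif searched on both strands was CCA, AG and GGC in this order with NN between each, and its matches are shown with 9 bases on each side, read on the strand of the match and with the motif in capitals, since they lie in anchors of loops described here and give the strand of each match. The 3 matches at NCAPD2 were, on the plus strand at chr12:6532870-6532899 (intergenic), on the minus strand at chr12:6535999-6536028 (intergenic), and on the minus strand at chr12:6647203-6647232 (an intron of GAPDH):
NCAPD2 upstream anchor, plus strand: actattctgCCACAAGAGGGCacccaaagc
NCAPD2 upstream anchor, minus strand: ctcttttacCCATAAGTTGGCcagaattga
GAPDH anchor, minus strand: ctgagccagCCACCAGAGGGCgccagaccc
The plus-strand match on the left and the minus-strand match on the right point toward each other. No match lay in either anchor of the 40 kb loop.

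NCAPD2 also reached farther upstream, toward TNFRSF1A. A loop of 195 to 200 kb from there to GAPDH was called in vehicle 1 and both THZ1 libraries. A loop of 130 to 155 kb ended at the NCAPD2 start in vehicle library 1 and upstream of it, near VAMP1, in vehicle library 2. The 2 THZ1 calls joined to it also ended near VAMP1 but outside the NCAPD2 window, and are not among the 61. A 70 kb loop from the 110 kb loop's upstream anchor to the NCAPD2 start was found in vehicle library 1 alone (33 contacts, 2.57 times).

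NCAPG (chr4:17812602-17846488, plus strand) had 4, 5, 5 and 3 loops, and in 16 of 17 calls its start site lay inside an anchor. That anchor, chr4:17810001-17815000 in most calls, also holds the start of DCAF16, which is transcribed the other way. Upstream it met the start of MED28, a Mediator subunit gene, at 195 kb, the start of LAP3 at 235 kb, and an anchor without a protein-coding gene at 255 to 260 kb. Downstream it met the start of LCORL at 210 kb and a gene-free anchor at 775 to 780 kb. The promoter window of NCAPG is shown because these loops meet at this start site. It is the RefSeq promoter (GRCh38.p14 table) cut to 250 bases before and 30 after the start, found at 1 place in GRCh37, chr4:17812352-17812631 on the plus strand, with its match to TTTGAA in capitals:
NCAPG promoter: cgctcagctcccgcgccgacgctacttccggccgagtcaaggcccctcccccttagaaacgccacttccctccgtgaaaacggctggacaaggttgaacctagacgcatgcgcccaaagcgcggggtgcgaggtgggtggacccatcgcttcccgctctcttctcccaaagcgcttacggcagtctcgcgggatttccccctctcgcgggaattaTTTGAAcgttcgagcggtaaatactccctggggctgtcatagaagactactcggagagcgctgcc
TTTGAA, the cell cycle genes homology region known from promoters active late in the cell cycle, begins 35 bases before the NCAPG start.

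The LCORL loop of 210 kb, to chr4:18020001-18025000, had 16, 33, 23 and 21 contacts, which were 6.35 and 13.1 times the donut expectation with vehicle and 5.37 and 5.19 times with THZ1. Both THZ1 values lay below both vehicle values, while vehicle library 2 was farther from vehicle library 1 than the latter was from either THZ1 library. The ratio fell by 0.87 on the log2 scale (SE 0.29, edgeR, Benjamini-Hochberg adjusted p = 0.0326). Its observed contacts changed by -0.16 and its donut expectation by 0.72 on the log2 scale. Without vehicle library 2 the change was -0.26 (edgeR, adjusted p = 0.720), so its size rested on that library. The call was also lost on observed contacts alone with TMM (-0.14, edgeR, adjusted p = 0.831), with the horizontal and vertical expectations (-0.60 and -0.63, adjusted p = 0.438 and 0.254). With THZ1 library 1 or 2 left out, fits that called 0 of all loops, the change stayed at -0.90 and -0.85.

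The MED28 loop of 195 kb, from chr4:17615001-17620000, had ratios of 6.01 and 6.84 in the vehicle libraries, against 4.52 and 4.92 after THZ1. The conditions did not overlap, but the change of -0.45 (SE 0.24, edgeR, Benjamini-Hochberg adjusted p = 0.227) did not pass the threshold. It was -0.073 on observed contacts alone with TMM and -0.023 with the vertical expectation (edgeR, adjusted p = 0.917 and 0.981). The LAP3 loop of 235 kb was present with vehicle in both libraries and absent from the THZ1 lists, with 24 and 25 contacts (6.43 and 5.81 times). The largest loop at any condensin gene also belonged to NCAPG, 2125 kb to the starts of FBXL5 and FAM200B in THZ1 library 1 alone (21 contacts, 4.93 times).

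**Figure D2:**
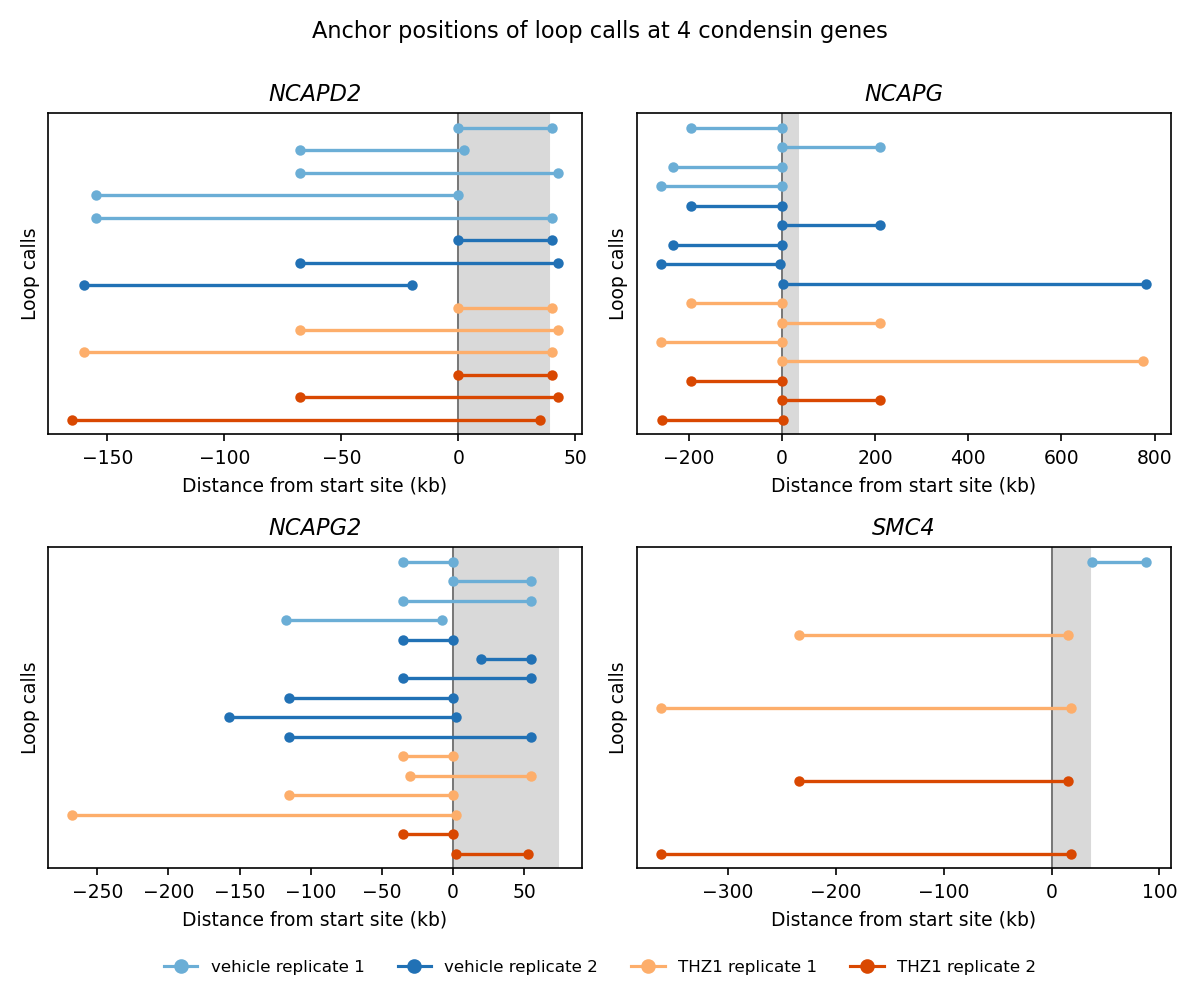
Each line is 1 loop call of up to 1000 kb, drawn between its anchor midpoints by distance from the gene's start site in kb, along the direction of transcription; colours mark the library and grey the gene body. Loops of NCAPG meet at its start site, whereas the loops of SMC4 in the THZ1 libraries end inside the gene; the 2125 kb loop of NCAPG is outside the range drawn.

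NCAPH (chr2:97001504-97042829, plus strand) had 0, 1, 2 and 1 calls. A loop of 170 to 190 kb to the start of NEURL3 was present in the 2 THZ1 lists and absent from the vehicle lists. In THZ1 library 2 it ran from the NCAPH start (16 contacts, 5.36 times the expectation) and in THZ1 library 1 from an anchor at the start of SNRNP200, upstream of NCAPH (31 contacts, 4.05 times), so the pair of calls was joined by distance and did not share an anchor at NCAPH. A 35 kb loop between the SNRNP200 gene and an anchor just past the NCAPH start was called in vehicle library 2 (21 contacts, 3.11 times) and THZ1 library 1 (33 contacts, 3.64 times).

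NCAPD3 (chr11:134020008-134095398, minus strand) had a single call, of 1075 kb in THZ1 library 1, between 25 kb anchors in OPCML and at the 3′ end of NCAPD3, where JAM3 also lies (31 contacts, 4.25 times). NCAPH2 (chr22:50946653-50963209, plus strand) had 1 call in each vehicle library and none with THZ1. These were 85 and 80 kb long, with 16 and 23 contacts (4.83 and 4.49 times), and led from anchors near the starts of ODF3B and its neighbours TYMP and KLHDC7B, within 20 kb of NCAPH2, to chr22:51055001-51060000, where no protein-coding gene starts.

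NCAPG2 (chr7:158423861-158497495, minus strand) had 4, 6, 4 and 2 calls in 7 distinct loops, the most of the 8 genes. Of its 16 calls 10 were 90 kb or shorter, and 10 had the start site in an anchor. The 35 kb loop from the start site, chr7:158495001-158500000, to an anchor within its upstream neighbour ESYT2, chr7:158530001-158535000, was in all 4 lists. It had 34, 45, 34 and 35 contacts, or 5.07 and 5.70 times the donut expectation with vehicle and 3.49 and 3.77 times with THZ1. Both THZ1 ratios were below both vehicle ratios, but the change of -0.58 (SE 0.21, edgeR, Benjamini-Hochberg adjusted p = 0.0529) missed the threshold. With the bottom-left expectation, taken from pixels nearer the diagonal, it passed (-0.73, edgeR, Benjamini-Hochberg adjusted p = 0.0317). It did not pass with the vertical or horizontal expectation (-0.67 and -0.39, adjusted p = 0.139 and 0.391), nor on observed contacts alone with TMM (-0.18, adjusted p = 0.719).

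Each anchor of this 35 kb loop held 1 match to the CTCF-like motif, and both were on the plus strand. The match near the NCAPG2 start, at chr7:158497787-158497816, lies upstream of the gene in intergenic sequence, and the other, at chr7:158530230-158530259, in an intron of ESYT2:
NCAPG2 start anchor, plus strand: gtgcgcggtCCAGGAGAGGGCggggcgctg
ESYT2 anchor, plus strand: cctacccctCCAGAAGGGGGCtgctccttt
The longest loop of NCAPG2, 270 kb in THZ1 library 1, joined 10 kb anchors that hold the start-site match and a minus-strand match at chr7:158769913-158769942. Anchors of this width do not place the contact at either match. The pair of matches points toward each other:
NCAPG2 distal anchor, minus strand: caacaacgcCCAGCAGAGGGCgaatttgct
A loop of 170 kb from within the gene to chr7:158610001-158615000 was found in vehicle library 2 alone (25 contacts, 5.14 times), where the 35 kb loop had 5.70 times.

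Over both anchors of the condensin gene loops, distant ones included, the motif was in 2 of 26 anchors of 5 kb (7.69%), 7 of 18 of 10 kb (38.9%) and 3 of 10 of 25 kb (30%). Of all anchors in the 4 lists it was in 25.5%, 37.8% and 58.8% at these widths. Member anchors overlap one another, so these counts are not of independent regions, and a match says nothing about whether CTCF was bound. RefSeq promoter windows were given for 7 of the 8 genes. These genes had 10 windows in all. TTTGAA was found on either strand in 5 of the 10 windows (50%), at NCAPD2, NCAPD3, NCAPG, SMC2 and SMC4, against 14.5% of 35116 windows of the same length. At NCAPD2, NCAPD3 and SMC4 the window with TTTGAA lay downstream of the gene start used here and mostly in annotated exons (263, 280 and 280 of 280 bases). CCAAT was found in 3 of the 10 (30%), at NCAPD2, NCAPD3 and NCAPH, against 33.6%.

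Across the 27 distinct loops, 7 were found in all 4 libraries (25.9%, against 26.1% of all distinct loops), of which 1 is the NCAPD2 loop completed by calls outside its window. Loops of both vehicle libraries only numbered 2, the LAP3 loop of NCAPG and the NCAPH2 loop, where 9.67% of all distinct loops had this pattern. By the calls inside the gene windows alone, that NCAPD2 loop was one of both vehicle libraries only. The numbers were then 6 in all 4 libraries and 3 in both vehicle libraries only. Loops of both THZ1 libraries only numbered 3, both SMC4 loops and the NEURL3 loop of NCAPH, where 2.24% of all distinct loops did. With calls joined within 10 kb, the latter number was 2 of 30, against 2.55% of all. Of the rest, 6 had other combinations and 9 were in 1 library.

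For the strength of loops, 2624 had identical anchors in all 4 lists and 2622 could be tested, 5 of them at condensin genes. The 2 that passed the threshold, the NCAPD2 loop of 40 kb and the LCORL loop of NCAPG, were weaker with THZ1, where 27.4% of all tested loops were weaker and 0.0381% stronger. In 4 of the 5 loops both THZ1 ratios lay below both vehicle ratios, as they did in 68.7% of all tested loops. The median log2 change was -0.58 over the 5 loops and -0.41 over all tested. The observed contacts of the 5 loops changed by a median of -0.16 and their donut expectation by 0.38 on the log2 scale, against -0.020 and 0.40 over all tested loops. On observed contacts alone, with TMM normalization and no expectation, edgeR called 115 loops weaker and 74 stronger of all loops, against 719 and 1 with the expectation, and none at a condensin gene at a Benjamini-Hochberg adjusted p below the threshold; the median of all loops moved to -0.0050. The NCAPD2 loop passed the threshold in none of the 4 edgeR fits that left out 1 library (Benjamini-Hochberg adjusted p from 0.0894 to 0.115), and the NCAPG loop passed in the fit without vehicle library 1 alone. Each of these fits leaves 1 condition with a single library, which is assumed to vary like the other condition, and 3 of the 4 called 0 of all 2622 loops, so a call lost there does not by itself show a smaller change. DESeq2 gave the 5 loops no adjusted p in its default form and called none of them without its filter on mean counts, where the changes were -0.79 for the NCAPD2 loop and -0.88 for the NCAPG loop (adjusted p = 0.373 and 0.427).

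**Figure D3:**
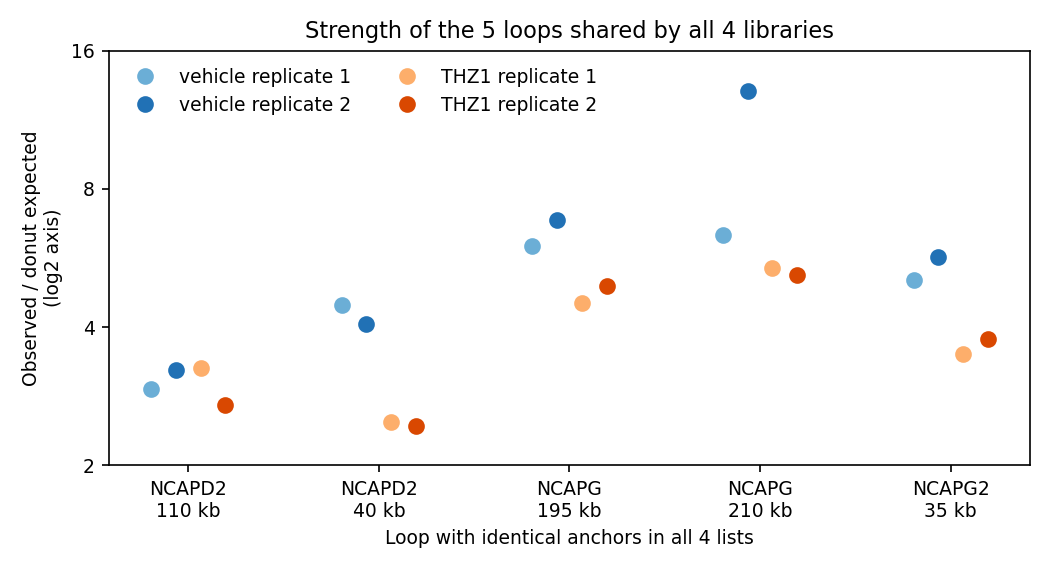
Observed contacts over the donut expectation (log2 axis) for the 5 condensin gene loops with identical anchors in all 4 lists, 1 point for each library. Vehicle points lie above THZ1 points at 4 loops and overlap at the NCAPD2 loop of 110 kb; vehicle library 2 stands apart at the NCAPG loop of 210 kb.

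The sizes of condensin gene loops were compared at a limit of 90 kb, below which loops are taken here as short. At these genes 7 of 15, 6 of 18, 4 of 17 and 3 of 11 loops were that short, or 46.7%, 33.3%, 23.5% and 27.3%. Each THZ1 share was below each vehicle share, with means of 40.0 ± 9.43% and 25.4 ± 2.65% (SD, n = 2), a difference of -14.6 percentage points at the smallest p the design allows (exact permutation p = 0.333). The difference was -7.93 without vehicle library 1, -1.98 at a limit of 60 kb (exact permutation p = 1) and -24.2 when every FDR had to be 0.01 or lower. In the whole lists the share went from 37.03 ± 0.339% to 25.9 ± 0.479%. The 95% Wilson intervals of single libraries were wide, from 24.8 to 69.9% in vehicle library 1 and from 9.75 to 56.6% in THZ1 library 2. With 10 kb anchors alone, from 3 or 4 loops per library, the conditions overlapped, at 50 and 0% with vehicle and 0 and 25% with THZ1. With 5 kb anchors alone the shares were 45.5 and 46.2% against 40 and 33.3%. No condensin gene loop with 25 kb anchors was 90 kb or shorter. Loops this short came from 5 genes; SMC2, NCAPG and NCAPD3 had none in any library.

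The median size at condensin genes was 110 and 150 kb with vehicle and 200 and 195 kb with THZ1, against 140 kb in both vehicle lists and 200 kb in both THZ1 lists as a whole. The shortest loop was 35 kb, seen at NCAPH and NCAPG2.

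**Figure D4:**
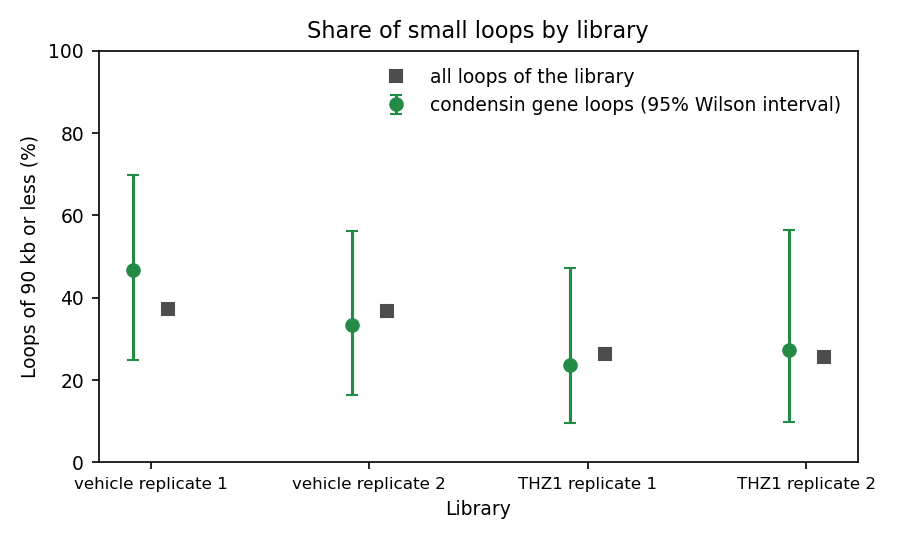
Share of loops of 90 kb or less (percent) at condensin genes, with 95% Wilson intervals, and among all loops of the same library (squares). The condensin gene shares fall from 46.7 and 33.3% with vehicle to 23.5 and 27.3% with THZ1, and every interval covers the value of its whole library.

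Contact domains, squares of raised contact called on a 10 kb grid, rarely held a condensin gene. NCAPG2 in THZ1 library 2 was the 1 case in which a domain spanned a whole gene, chr7:158420001-158690000 (corner score 1.18). A domain over the 5′ part of NCAPG2 was present in all 4 libraries. Its edge within or beside the gene lay at 158470001 in both vehicle libraries, at 158440001 in THZ1 library 1 and at 158420001 in THZ1 library 2, while the other edge stayed between 158690000 and 158700000. The domain thus measured 230 and 220 kb with vehicle and 260 and 270 kb with THZ1.

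Domains that spanned the midpoint of a condensin gene were absent from both vehicle lists, and each THZ1 list held 2 of them: NCAPG2 in both THZ1 libraries, NCAPG in THZ1 library 1 (800 kb) and NCAPD2 in THZ1 library 2 (210 kb). Of all protein-coding genes, domains spanned the midpoint of 15.5% and 18.1% with vehicle and of 29.1% and 28.6% with THZ1. NCAPG2 was the 1 condensin gene of 8 spanned in both THZ1 libraries and in no vehicle library, a pattern that 8.06% of 20098 genes had. NCAPD3 was overlapped at its 5′ end by a domain of 850 kb in THZ1 library 1. For domains holding whole genes, the counts of 0, 0, 0 and 1 gave an exact permutation p of 1. The whole domain lists were longer with THZ1, at 2477 and 2345 against 1198 and 1398 domains, and held 21.5% and 21.2% of protein-coding genes against 11.9% and 13.7%. No domain overlapped SMC2, SMC4, NCAPH or NCAPH2 in any library.

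Other genes of chromosome structure and mitosis gave a comparison by the same count. Of 16 genes for cohesin, chromosome compaction, mitotic kinases and the cyclin CCNB1, 5 had fewer loops in both THZ1 libraries than in both vehicle libraries, 0 had more and 11 overlapped, against the 28.9% and 3.01% of genes given above. The 5 were TOP2B, KIF4A, CCNB1, PLK1 and AURKB. AURKB, the Aurora kinase of the chromosomal passenger complex, went from 8 and 8 to 4 and 5 loops. The 5 cohesin genes all overlapped, as did GAPDH with 3, 2, 3 and 3, while CDK7, the target of THZ1, had 2, 2, 0 and 0. The GAPDH calls are the NCAPD2 calls that end at GAPDH, counted again, so GAPDH gave no separate comparison.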

How the data were processed

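The deposited files, per the labels and file headers, hold HiCCUPS loops and Arrowhead contact domains that the authors made from Arima-HiC reads with Juicer 1.6 (juicer_tools 1.19.02, hg19), 1 list per library. In the deposited loop lists the observed contacts are raw counts at the peak pixel, the local expectations are a signal on the same scale, the FDRs are q-values, and a deposited corner score ranks each domain. Filters on reads and the depth of each library are not given in the sources used here; the study's methods state a range of reads per sample only. The authors' tables of loops unique to a condition were used for their totals and the loops they hold at condensin genes alone.

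Genes came from GENCODE 44 lifted to GRCh37. Every anchor lay within the GRCh37 chromosomes. Loop size is the distance between anchor starts. Partner genes have a start site in the other anchor extended by 5 kb, or else overlap it. Library values were compared by exact permutation tests. Loop strength was fitted with edgeR 4.0.16 (quasi-likelihood, log donut expectation as offset, standard errors from the F statistic, threshold 0.05 after Benjamini-Hochberg over all loops). The 2 loops with an expectation at or near 0 were left out. In counts simulated from this fit, 67.5% of 200 changed loops were called, with 23.9%, 80.6% and 98.5% at 1.5, 2 and 3 fold. The simulation used the same offset and the fit's own spread, so it cannot test whether these suit the data. DESeq2 1.42.0 was an alternative. Named loops included those identical in all 4 lists, those of both libraries of 1 condition only, and for each gene its strongest, smallest and largest. Some other loops at these genes were also described, outside this rule. The genes and lists were chosen with earlier results of these data known.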

Additional observations from a re-analysis of the deposited data

How the results depend on the processing

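The log2 ratio of loops per library, -0.24, turned to 0.23 per 1000 loops, to 0.19 with 10 kb anchors alone and to 1 with 25 kb anchors alone, and ranged from -0.58 to 0.043 with 1 library left out. The share of loops of 90 kb or less was lower with THZ1 in all 10 alternatives, from -24.2 percentage points at an FDR of 0.01 to -1.98 at a limit of 60 kb, and from -21.3 to -7.93 with 1 library left out. With 1 library left out or the replicate block, this direction was fixed in advance, since each THZ1 share lay below each vehicle share. The alternatives did not include single anchor widths, for which the shares are given above. The 2 weaker condensin gene loops became 0 under TMM, the horizontal and the vertical expectation, and 0 to 1 with 1 library left out; over all loops the 719 weaker calls became 115, 48 and 59, and 0 to 154. With the bottom-left expectation they were 3, with the NCAPG2 loop of 35 kb added (edgeR, Benjamini-Hochberg adjusted p = 0.0317), and 604 of all. The NCAPD2 loop of 110 kb turned to 0.33 under TMM and 0.034 under the horizontal expectation, and ranged from -0.19 to 0.079 with 1 library left out. DESeq2 in its default form gave no adjusted p for the 5 loops, since its filter on mean counts set them aside, so no call of theirs can be said to be kept or lost there; it called 17 loops in all. Its run without that filter, chosen after seeing the data, called 0 of the 5 and 0 in all (359 loops at an unadjusted p under 0.05, 0 of the 5; lowest adjusted p of the 5, 0.373). Domains holding a whole gene differed by 0.5, by 2 at the midpoint, by 1.5 at any overlap, and by 0 to 1 with 1 library left out. Loops of both vehicle libraries only became 1 with a 50 kb match, and loops of both THZ1 libraries only went from 3 to 2 with a 10 kb match. The cause of these shifts was not tested.

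With the replicate block the values were -0.26, -14.6 percentage points, 2 weaker loops (768 of all) and 0.5 domains, and the calls of the 5 condensin gene loops did not change. The numbers were not taken to pair the libraries: the correlation of replicate differences was 0.018 over 2622 loops, with 2 pairs.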

Other observations

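In the authors' pooled list of 989 loops unique to vehicle, 1 loop lay at a condensin gene, and in that of 177 loops unique to THZ1, 0 did. The vehicle loop ran 90 kb from the start of NCAPH, chr2:97000001-97010000, to chr2:97090001-97100000, with 33 contacts, 2.58 times the donut expectation, and matched no call of a single library within 20 kb.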
